A study of Ovis aries with 9 samples.

Results

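The genes examined here were 7 genes of ovarian androgen and estrogen synthesis: CYP17A1 and INSL3, which mark the theca cells, CYP19 and HSD17B1, which mark the granulosa cells, POR and CYB5A, the redox partners of the synthesis enzymes, and SRD5A1, which turns testosterone into dihydrotestosterone. They were taken by symbol, and all 7 had a row among the 27174 rows of the count table. Enough reads for testing were present for 6 of the 7, and 16871 rows were tested in all. RNA-Seq was performed on whole ovaries of 9 adult ewes, 3 in each group. The Han BB group (W1, W2 and W4) was Small Tail Han sheep homozygous for the FecB mutation of BMPR1B (genotype FecBBFecBB), and the Han ++ group (W6, W7 and W8) was Small Tail Han sheep without it (FecB+FecB+). The Dorset ewes (D4, D5 and D6) were of a breed of low fecundity and served as controls, and their genotype was labelled wild type. All ewes were 2.5 to 3 years old and had received a fluorogestone acetate sponge and pregnant mare serum gonadotropin for synchronization. The ovaries, with ovulation points, were taken 24 to 36 h after the next spontaneous estrus. Han ++ and Dorset differ in breed, Han BB and Dorset differ in breed and FecB genotype, and Han BB and Han ++ differ in FecB genotype within a breed.

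In a growing follicle, theca cells respond to luteinizing hormone by making androgen, and granulosa cells respond to follicle stimulating hormone by converting that androgen to estrogen. CYP17A1 carries out the step from progestagens to androgens, aromatase, encoded by CYP19, makes estrogens from androgens, and HSD17B1 reduces estrone to estradiol. Around ovulation the surge of luteinizing hormone shuts down both CYP17A1 and CYP19 in the ovulating follicle, and the luteal cells that follow make progesterone, so the levels of these genes in an ovary depend on the follicles it holds. A whole ovary was measured, and fewer cells of a type cannot be told apart from less RNA per cell.

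The libraries held 10803913 to 20992535 counted reads. W4 (Han BB) and D6 (Dorset) stood apart from the other 7 libraries: on the first principal component, which took 42.4% of the variance, W4 scored -99.0, D6 scored -88.1 and W7, the next lowest, scored -18.5, and the rank correlation of these 2 libraries was 0.978 although they belong to different groups. D4 (Dorset) lay at the other end, at 99.95, with W8 next at 60.0, and had the lowest rank correlations, 0.870 with W4 and 0.899 with D6. The summed level of 13 ciliated epithelium markers was 495 CPM (reads scaled to library size) in W4, where the other Han BB ewes had 145 to 180 CPM. It was 275 CPM in D6, where the other Dorset ewes had 112 to 130 CPM, and 236 to 360 CPM in Han ++. None of these 13 markers was at 0 in all libraries. The part of these markers in the results below was not tested, and the members' log2 fold changes are given with and without W4 and D6, while most list values are given with all ewes only. Every pair of ewes of the same group differed beyond sampling noise, so each ewe counted as 1 replicate.

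No member passed the test between any pair of groups. With edgeR's quasi-likelihood test fitted over all 16871 rows, 0 of the 6 tested members passed an adjusted p of 0.05 with a fold above 1.5 in either direction in Han BB against Dorset, in Han ++ against Dorset or in Han BB against Han ++. Among all tested rows the same rule called 0%, 0.00593% and 0%, so few genes of any kind were called with 3 ewes a group. The members' counts were also 0 under DESeq2 and limma. What the members did show was a spread between ewes of the same group that was among the widest of all genes for CYP19 and CYP17A1 and below the median of all genes for POR and CYB5A.1, the row that held nearly all CYB5A reads. The only member with an unadjusted p under 0.05 was HSD17B1, which was lower in all 3 Han BB ewes than in all 3 Han ++ ewes.

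**Figure D1:**
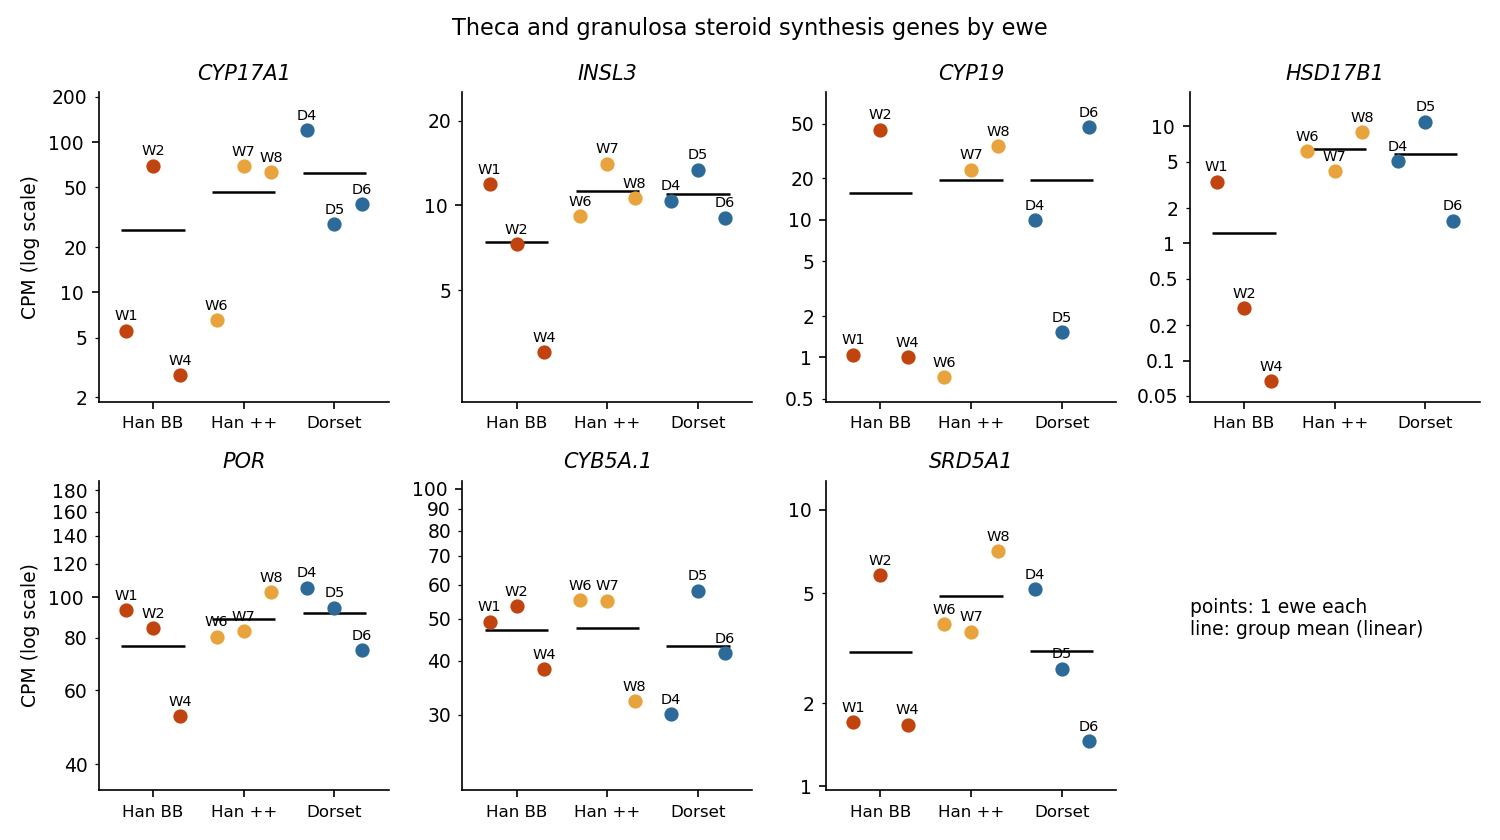
Expression in CPM (log axis, its range set for each gene) of the 7 members in each of the 9 ewes, with CYB5A shown by its row CYB5A.1; each point is an ewe and the line is the group mean on the linear scale. CYP17A1 and CYP19 split the ewes of a group widely, from 2.81 to 69.3 CPM and from 1.00 to 45.3 CPM in Han BB, whereas POR spanned 52.0 to 105.4 CPM over all 9 ewes.

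CYP17A1 encodes the 17α-hydroxylase and 17,20-lyase of theca cells. In Han BB its level was 5.55 CPM in W1, 69.3 CPM in W2 and 2.81 CPM in W4. In Han ++ it was 6.54 CPM in W6, 69.3 CPM in W7 and 62.7 CPM in W8. In Dorset it was 119.5 CPM in D4, 28.4 CPM in D5 and 38.7 CPM in D6. Both Han groups therefore held ewes with high and with low levels, and no Dorset ewe was in the low range. The low values rested on 42 to 137 reads and the others on at least 631 reads. In the RefSeq annotation of a later sheep assembly, an entry named CYP17 lies next to CYP17A1. Whether reads of CYP17A1 were divided with it, or lost because only uniquely mapped reads were counted, was not tested. Ordered by level, the ewes ran W4, W1, W6, D5, D6, W8, W7, W2 and D4, and the only step between neighbours that exceeded the within-group SD was the one from W6 to D5, of 2.10 on the log2 scale.

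The group means of CYP17A1 were 25.9 ± 37.6 CPM in Han BB, 46.2 ± 34.5 CPM in Han ++ and 62.2 ± 49.9 CPM in Dorset (SD, n = 3 each), so the SD exceeded the mean in Han BB and was a large part of it in the other groups. The fitted log2 fold change was -1.26 (SE 1.11) for Han BB against Dorset, with a 95% interval from -3.72 to 1.19 and an adjusted p of 0.996 in edgeR. For Han ++ against Dorset it was -0.43 (SE 1.10), and for Han BB against Han ++ it was -0.84 (SE 1.11), with adjusted p of 1.00 and 0.999 in edgeR. The groups overlapped in all 3 comparisons, and the 3 comparisons share ewes. A single ewe set much of the size: without W2 the log2 fold change of Han BB was -3.87 against Dorset and -3.44 against Han ++, without D4 it was -0.38 against Dorset, and without W4 it was -0.31 against Han ++. For Han ++ against Dorset it was 0.45 without D4 and -0.86 without W7. Without both W4 and D6 the 3 values were -0.97, -0.66 and -0.31, and none passed the test.

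INSL3 encodes an insulin-like peptide hormone secreted by the theca cells. Its level was 11.9 CPM in W1, 7.28 CPM in W2 and 3.01 CPM in W4. In Han ++ it was 9.16 CPM in W6, 14.1 CPM in W7 and 10.6 CPM in W8, and in Dorset it was 10.4 CPM in D4, 13.4 CPM in D5 and 9.05 CPM in D6. Apart from W4 the ewes lay between 7.28 and 14.1 CPM. W1 and W6, which were low for CYP17A1, were within this range for INSL3, and W2, which was among the highest for CYP17A1, was the lowest of the 8. Low CYP17A1 and low INSL3 thus occurred together in W4 alone.

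The fitted log2 fold change of INSL3 was -0.56 (SE 0.45) for Han BB against Dorset, -0.60 (SE 0.45) for Han BB against Han ++ and 0.04 (SE 0.44) for Han ++ against Dorset, with adjusted p of 0.996, 0.999 and 1.00 in edgeR. Without W4 the first of these was -0.21 and the second -0.24. Without W1 they were -1.10 and -1.16, and without W7 the Han ++ against Dorset value was -0.17. Without both W4 and D6 the values in the same order were -0.32, -0.24 and -0.08. In the RefSeq annotation of a later sheep assembly the neighbour of INSL3 is JAK3, a kinase gene with more reads. INSL3 reads came to 14.7% to 30.8% of JAK3 reads in each ewe. JAK3 was also lowest in W4, at 20.5 CPM, and highest in D5, at 90.7 CPM. Whether reads of one were counted for the other was not tested. A row named INSL3.1 held 0 to 6 reads, and adding it left the 3 log2 fold changes at -0.58, -0.65 and 0.07.

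CYP19, the aromatase gene of granulosa cells, had the highest within-group SD of log2 CPM among the members. In Han BB it was 1.04 CPM in W1, 45.3 CPM in W2 and 1.00 CPM in W4. In Han ++ it was 0.716 CPM in W6, 23.1 CPM in W7 and 34.4 CPM in W8. In Dorset it was 9.93 CPM in D4, 1.53 CPM in D5 and 47.2 CPM in D6. Each group thus held at least 1 ewe under 2 CPM and 1 ewe above 30 CPM, and the highest was above the lowest by 45.1-fold in Han BB, 48.0-fold in Han ++ and 30.8-fold in Dorset. The low values rested on 15 to 34 reads and the others on 102 to 845 reads. No step between neighbours in the order W6, W4, W1, D5, D4, W7, W8, W2 and D6 exceeded the within-group SD. The widest was the step from D5 to D4, of 2.61 on the log2 scale, where the next widest was 1.21. The within-group SD is made from the same low and high ewes. For any member, a step above or below it therefore does not show whether the ewes form separate sets.

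The group means of CYP19 were 15.8 ± 25.5 CPM in Han BB, 19.4 ± 17.1 CPM in Han ++ and 19.6 ± 24.3 CPM in Dorset (SD, n = 3 each). The fitted log2 fold changes were -0.32 (SE 1.53) for Han BB against Dorset, -0.02 (SE 1.52) for Han ++ against Dorset and -0.30 (SE 1.53) for Han BB against Han ++, with adjusted p of 0.997, 1.00 and 0.999 in edgeR. The 95% intervals reached from -3.68 to 3.04, from -3.37 to 3.33 and from -3.66 to 3.07, so differences of several fold in either direction were not detectable with these ewes. The sign followed single ewes. Without W2 the value was -4.24 for Han BB against Dorset and -4.22 for Han BB against Han ++, without D6 it was 1.498 and 1.79 for Han BB and Han ++ against Dorset, and without W8 it was -0.70 for Han ++ against Dorset and 0.36 for Han BB against Han ++. With W4 and D6 both left out, all 3 values turned positive, at 2.07, 1.81 and 0.26, with no adjusted p under 0.05.

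HSD17B1 encodes the granulosa enzyme that reduces estrone to estradiol. In Han BB it was 3.37 CPM in W1, 0.280 CPM in W2 and 0.0669 CPM in W4. In Han ++ it was 6.11 CPM in W6, 4.12 CPM in W7 and 8.93 CPM in W8. In Dorset it was 5.06 CPM in D4, 10.9 CPM in D5 and 1.56 CPM in D6. The 3 Han BB ewes lay under the 3 Han ++ ewes with no overlap, and W1 lay above D6. The reads behind these values were 71, 4 and 1 in Han BB, against 91 to 128 in Han ++ and 28 to 242 in Dorset, so the value of W4 was a single read. The step from W2 to D6, of 2.08 on the log2 scale, was the only step between neighbours that exceeded the within-group SD.

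The means of HSD17B1 were 1.24 ± 1.85 CPM in Han BB, 6.39 ± 2.42 CPM in Han ++ and 5.84 ± 4.72 CPM in Dorset (SD, n = 3 each). For Han BB against Han ++ the log2 fold change was -2.31 (SE 1.04), with a 95% interval from -4.61 to -0.01, an unadjusted p of 0.0492 and an adjusted p of 0.999 in edgeR. In this comparison 1 of the 6 tested members had an unadjusted p under 0.05, where 1.97% of all tested rows did, and 1 of 6 had groups that did not overlap, where 9.38% of all tested rows did. For Han BB against Dorset the log2 fold change was -2.19 (SE 1.04), with an unadjusted p of 0.0590 and an adjusted p of 0.975 in edgeR, and for Han ++ against Dorset it was 0.12 (SE 0.98). The sign of Han BB against the other groups held with each ewe left out in turn. Against Dorset the values went from -5.04 without W1 to -1.35 without D5. Against Han ++ they went from -5.14 without W1 to -1.76 without W4, where the lack of overlap had fixed the sign in advance. Leaving out both W4 and D6 gave -2.11 against Dorset and -1.75 against Han ++. For Han ++ against Dorset the value was -0.35 without D6 and 0.96 without D5. DESeq2 gave an unadjusted p of 0.0176 for Han BB against Han ++ and 0.0250 for Han BB against Dorset, with adjusted p of 1 and 0.655. limma gave 0.0437 and 0.0474, with adjusted p of 0.666 and 0.429.

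CYP19 and HSD17B1 are both granulosa genes, and their levels are set side by side here by ewe with no test of their relation. W2 held 45.3 CPM of CYP19 and 0.280 CPM of HSD17B1, whereas D5 held 1.53 CPM of CYP19 and 10.9 CPM of HSD17B1, the highest of all ewes. D6, with the highest CYP19 at 47.2 CPM, had only 1.56 CPM of HSD17B1. W4 was low for both, and W8 was high for both. Divided at the step from D5 to D4, the widest of the 8, there were 4 ewes with lower and 5 with higher CYP19, under the 6 needed for a correlation within either, and none was computed for CYP19 with HSD17B1 or SRD5A1.

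POR encodes the reductase that passes electrons from NADPH to microsomal cytochromes P450, CYP17A1 and aromatase among them. Its level was 93.1 CPM in W1, 84.3 CPM in W2 and 52.0 CPM in W4. In Han ++ it was 80.5 CPM in W6, 83.0 CPM in W7 and 102.7 CPM in W8, and in Dorset it was 105.4 CPM in D4, 94.3 CPM in D5 and 74.8 CPM in D6. W4 and D6 were the lowest 2 of the 9, and only the step between W4 and D6 exceeded the within-group SD. The log2 fold changes were -0.26 (SE 0.29) for Han BB against Dorset, -0.04 (SE 0.29) for Han ++ against Dorset and -0.21 (SE 0.29) for Han BB against Han ++, with adjusted p of 0.997, 1.00 and 0.999 in edgeR. The 95% intervals, from -0.89 to 0.37, from -0.68 to 0.59 and from -0.85 to 0.42, were the narrowest of the tested members. Without both W4 and D6 the values were -0.18, -0.17 and -0.01, and without W4 alone the Han BB against Dorset value was -0.06 and the Han BB against Han ++ value was -0.01. For Han ++ against Dorset the value was 0.06 without D4.

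CYB5A encodes cytochrome b5, which favours the 17,20-lyase step of CYP17A1 and thereby androgen synthesis. The row named CYB5A held only 0 to 17 reads per ewe and was not tested. Nearly all reads were on a row named CYB5A.1, which held 309 to 1288 reads per ewe, or 95.6% to 99.9% of the reads on the 3 CYB5A rows. What the suffix stands for is not given in the sources used here, and this row was added after its values had been seen. CYB5A.1 was 49.2 CPM in W1, 53.4 CPM in W2 and 38.3 CPM in W4, 55.2 CPM in W6, 55.1 CPM in W7 and 32.2 CPM in W8, and 30.1 CPM in D4, 58.1 CPM in D5 and 41.6 CPM in D6. All groups overlapped, and D4, with the most CYP17A1, had the least CYB5A.1. The log2 fold changes were 0.12 (SE 0.32) for Han BB against Dorset, 0.14 (SE 0.32) for Han ++ against Dorset and -0.02 (SE 0.32) for Han BB against Han ++, none past the threshold in edgeR. The direction turned in at least 1 fit with an ewe left out for each of the 3, to -0.09 and -0.07 without D4 for the first 2 and to 0.11 without W6 for the last. With the 3 CYB5A rows summed the values were 0.12, 0.17 and -0.05. The remaining row, CYB5A.2, held 1 to 33 reads. Its log2 fold change for Han ++ against Dorset was 2.87 (SE 1.24), with an unadjusted p of 0.0413 and an adjusted p of 0.924 in edgeR, and W7, at 0.317 CPM, lay under D4, at 0.389 CPM.

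SRD5A1 encodes the 5α-reductase that turns testosterone into dihydrotestosterone and takes it away from aromatase. It was 1.71 CPM in W1, 5.81 CPM in W2 and 1.67 CPM in W4. In Han ++ it was 3.86 CPM in W6, 3.62 CPM in W7 and 7.09 CPM in W8, and in Dorset it was 5.16 CPM in D4, 2.66 CPM in D5 and 1.45 CPM in D6. The lowest 3 ewes were D6, W4 and W1, and no step between neighbours exceeded the within-group SD. These levels rested on 25 to 83 reads. The log2 fold changes were 0.66 (SE 0.63) for Han ++ against Dorset, -0.66 (SE 0.63) for Han BB against Han ++ and -0.0026 (SE 0.64) for Han BB against Dorset, with adjusted p of 1.00, 0.999 and 1.00 in edgeR. For Han BB against Dorset the value went from -0.84 without W2 to 0.56 without D4. For Han BB against Han ++ it went from -1.501 without W2 to -0.31 without W8. For Han ++ against Dorset it went from 0.32 without D6 to 1.22 without D4. Without both W4 and D6 the values were -0.05 for Han BB against Dorset, -0.38 for Han BB against Han ++ and 0.32 for Han ++ against Dorset.

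**Figure D2:**
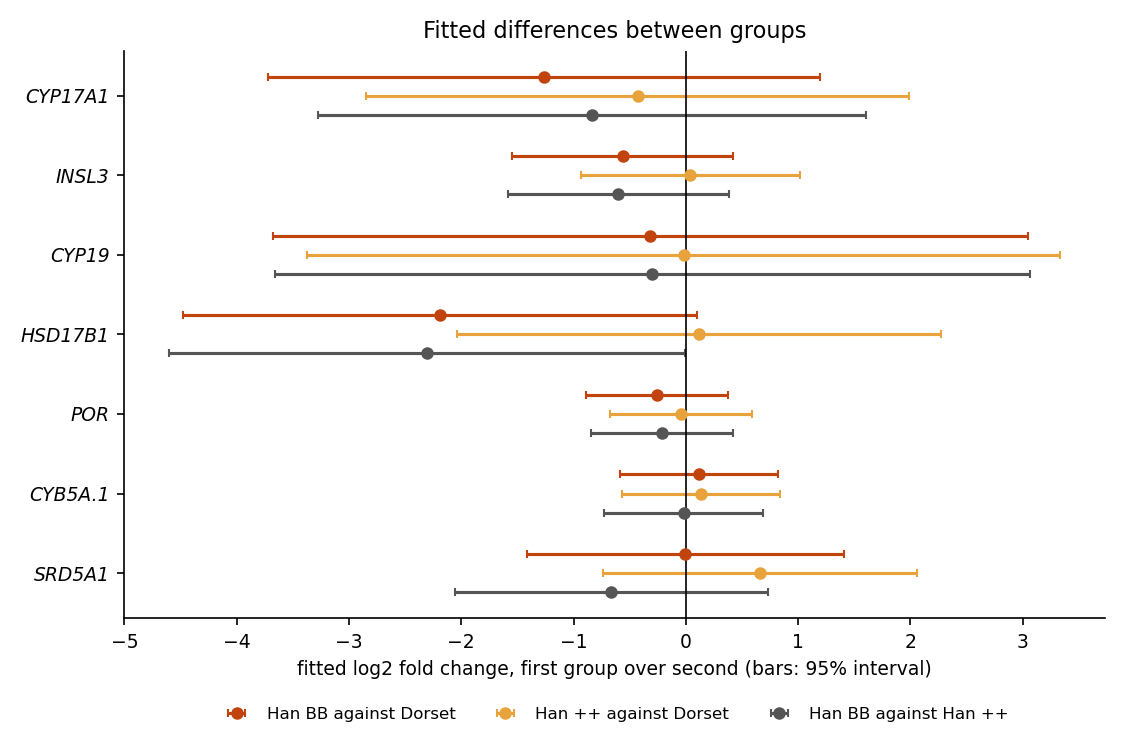
Fitted log2 fold change of each member (CYB5A by its row CYB5A.1) for the 3 comparisons, the group named first over the other, with 95% intervals from edgeR's quasi-likelihood fit over all 9 libraries. All intervals include 0 except that of HSD17B1 for Han BB against Han ++, which ends at -0.01, and the intervals of CYP19 are the widest.

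Counting members by the row with their symbol alone, the fitted log2 fold change of all 6 tested was negative for Han BB against Dorset and for Han BB against Han ++, while 3 were positive and 3 negative for Han ++ against Dorset. CYB5A.1, which this count leaves out, was at 0.12, -0.02 and 0.14 in the same order. The first 2 of these comparisons share the Han BB ewes, W4 among them, and SRD5A1 was at about 0 in the first. The medians over all tested rows were -0.01, 0.04 and -0.06 in the same order. In Han BB against Dorset 0 of 6 tested members had an unadjusted p under 0.05, where 4.99% of all tested rows did, and 0 of 6 had groups that did not overlap, where 8.79% of all tested rows did. In Han ++ against Dorset both member counts were also 0, where all tested rows gave 5.27% and 11.1%. In the test of any difference among the 3 groups 0 of 6 passed, where 0% of all tested rows did at an adjusted p of 0.05 and 3.94% did at an unadjusted p of 0.05. The smallest unadjusted p of a member in that test was 0.110 for HSD17B1, in edgeR.

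**Figure D3:**
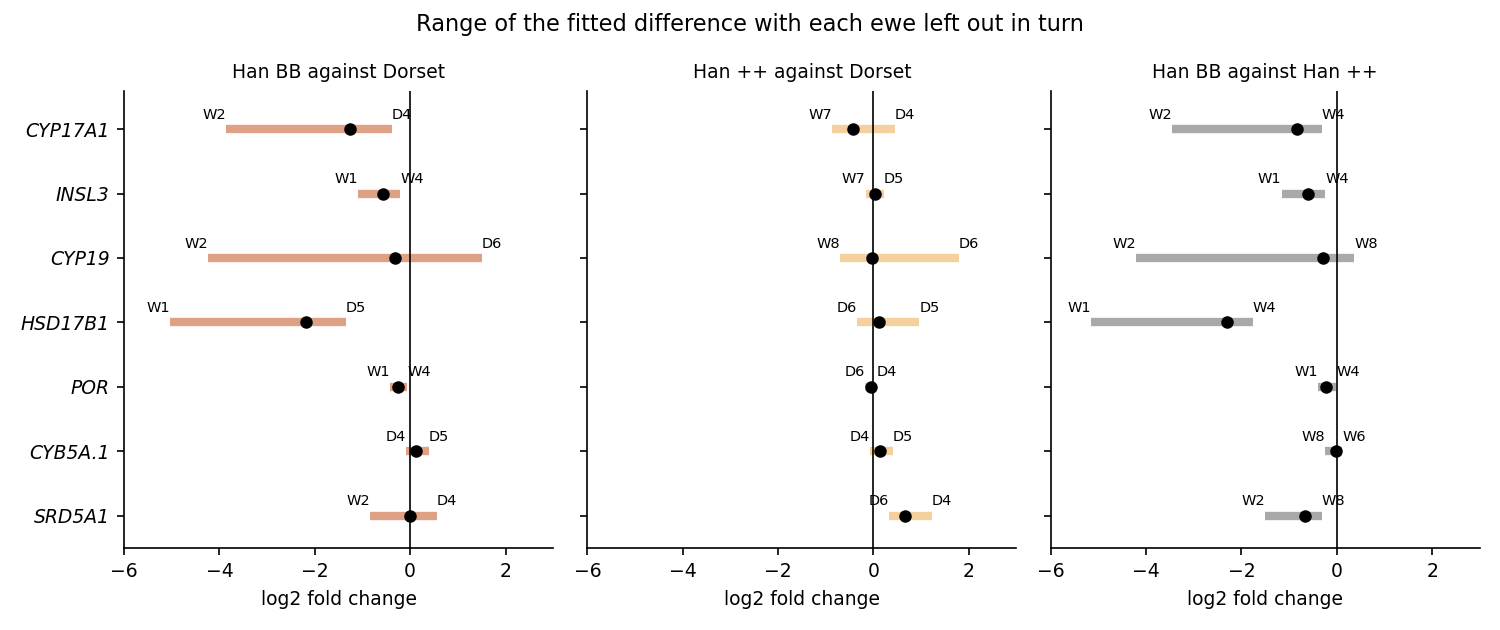
Range of the fitted log2 fold change of each member (CYB5A by its row CYB5A.1) when each of the 9 ewes was left out in turn, for the 3 comparisons; the black point is the value with all ewes, and the names at the ends of a bar are the ewes whose absence gave the lowest and the highest value. The ranges of CYP19 cross 0 in all 3 comparisons, and those of HSD17B1 stay negative in both comparisons of Han BB. HSD17B1 did not overlap between Han BB and Han ++, so leaving out an ewe could not turn its sign there.

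The spread between ewes of the same group separated the members from each other. The SD of log2 CPM within groups was 2.83 for CYP19, higher than that of 99.9% of the 16871 tested rows, and 1.88 for CYP17A1, higher than 98.3%. HSD17B1 followed with 1.53, higher than 94.9%, and SRD5A1 with 0.82, higher than 75.0%. INSL3 was near the median of all rows, with 0.62 against 0.54. CYB5A.1, with 0.40, and POR, with 0.32, lay below that median, at percentiles 31.6 and 18.6. Among rows of like mean level the percentiles were 99.9 for CYP19, 99.7 for CYP17A1, 96.7 for HSD17B1, 73.0 for SRD5A1, 68.3 for INSL3, 51.2 for CYB5A.1 and 33.97 for POR. The spread is a description, since no test compared the members with other genes.

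Genes of the steps from cholesterol to progesterone also varied widely for their level. Among rows of like mean level the within-group SD was at percentile 98.7 for STAR, 97.0 for CYP11A1 and 93.9 for HSD3B1, the first 2 above HSD17B1. STAR, which moves cholesterol into mitochondria, had a within-group SD of 1.16 and ranged from 19.7 CPM in D5 to 213 CPM in W6. CYP11A1, the side chain cleavage enzyme, had 1.05 and ranged from 73.6 CPM in W4 to 493 CPM in D4. HSD3B1, which completes progesterone synthesis, had 0.85 and ranged from 14.7 CPM in D6 to 98.1 CPM in D4. The gonadotropin receptors varied less: LHCGR had 0.26, between 19.6 and 35.2 CPM, and FSHR had 0.49, between 5.42 and 14.4 CPM, at percentiles 17.9 and 50.3 among rows of like level.

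**Figure D4:**
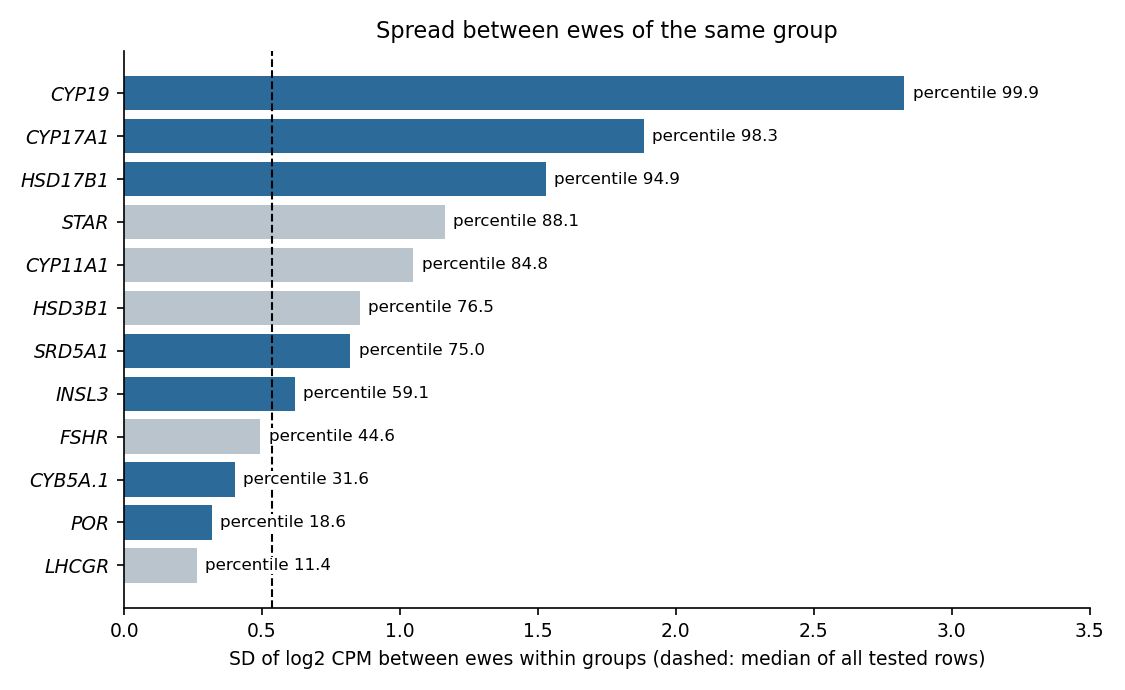
SD of log2 CPM between ewes within groups, pooled over the 3 groups, for the members (dark bars, CYB5A by its row CYB5A.1) and for 5 other genes of the pathway (light bars), with each one's percentile among all 16871 tested rows; the dashed line marks the median of all rows, 0.54. CYP19, CYP17A1 and HSD17B1 are the 3 widest of the genes shown, and LHCGR is the narrowest.

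CYP17A1 was compared with other members over ewes. Divided likewise at its widest step, from W6 to D5, CYP17A1 had a low set of 3 ewes and a high set of 6. The low set was W1, W4 and W6. The same 3 ewes were also the lowest for CYP19, at 0.716 to 1.04 CPM, and D5 came next for both genes. Relations were computed within the 6 only, although they had been planned over all ewes. The 6 were chosen by the level of CYP17A1 itself, which narrows its range and leaves out this shared low set. The tests below therefore cannot decide whether CYP17A1 was related to the other members over all ewes, and that was not tested. Pearson's r of CYP17A1 on the log2 scale was 0.42 with POR, -0.21 with INSL3, -0.56 with CYB5A.1 and 0.36 with CYP19. Spearman's rho was 0.37, -0.31, -0.54 and 0.03. None of the 4 had an adjusted p under 0.65 for r or under 0.752 for rho in exact two-sided permutation tests, with raw p of 0.415, 0.690, 0.246 and 0.488 for r and 0.497, 0.564, 0.297 and 1 for rho. Without D4 and D5, the ewes farthest from the median of CYP17A1, r was 0.55, 0.21, 0.35 and -0.55, so the sign turned in 3 of the 4. Within these 6 ewes none of the relations was past the threshold, and no conclusion on the relations over all ewes is drawn from this.

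The genes whose profile over the 9 ewes was most like that of a member were taken from 13938 tested, named genes, by Pearson's r of log2 CPM. For CYP17A1 they were GALNTL1 (r = 0.96), WTIP (0.94) and INSRR (0.94), and for CYP19 they were ABP1 (0.92), SUSD5 (0.92) and CRYAB.1 (0.91). GALNTL1 followed the low set of CYP17A1, with 12.9 to 15.6 CPM in W1, W4 and W6 and 18.9 to 32.98 CPM in the others. GALNTL1 was picked for its likeness to CYP17A1 over these same ewes, so this is no separate support for a low set. For HSD17B1 the most alike was AMH (r = 0.96), which encodes anti-Müllerian hormone, a product of the granulosa cells of small growing follicles. The next were RINL (0.95) and IHH (0.94), which encodes a hedgehog ligand that granulosa cells send to the theca. AMH was 1.23 CPM in W1, 0.560 CPM in W2 and 0.334 CPM in W4, against 1.31 to 2.39 CPM in Han ++ and 1.56 to 2.25 CPM in Dorset. IHH was 4.94, 0.630 and 0.870 CPM in the same Han BB ewes, against 3.01 to 7.37 CPM in Han ++ and 2.51 to 6.85 CPM in Dorset. W2 and W4 had the lowest 2 values of all 9 ewes for HSD17B1, AMH and IHH alike, at 0.0669 to 0.870 CPM. AMH and IHH were picked for their likeness to HSD17B1 over these same ewes. The shared order follows from that choice and is no separate support for a low HSD17B1.

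For INSL3 the most alike genes were PLAC9 (r = 0.96), FAM84A (0.96) and ADO (0.95), with r of 0.88, 0.85 and 0.77 when W4 and D6 were left out. For POR they were GET4 (r = 0.99), TCN2 (0.98) and ASNA1 (0.98), where GET4 and ASNA1 take part in inserting tail-anchored proteins into the endoplasmic reticulum. For SRD5A1 they were IL37 (0.98), SEZ6L (0.98) and VWDE (0.97), all at no more than 2.95 CPM in any ewe. IL37 and VWDE were at 0 CPM in W1, W4 and D6, the ewes lowest for SRD5A1, so their r rests partly on values at the floor. For CYB5A.1 they were PIP4K2C (0.95), EFR3B (0.92) and MTX3 (0.90). Leaving out W4 and D6 gave r of at least 0.91 for the genes named beside CYP17A1, CYP19, SRD5A1 and POR, of at least 0.90 for those beside CYB5A.1, and of 0.97, 0.91 and 0.94 for AMH, RINL and IHH. With 9 points and so many genes compared, such values are a ranking and not a test.

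The other genes of androgen and estrogen metabolism showed no call. Of a list of 35 genes that act before, beside or after the members, 21 were tested, and 0 of the 21 had an unadjusted p under 0.05 in any of the 3 comparisons. Among all tested rows the shares were 4.99% for Han BB against Dorset, 5.27% for Han ++ against Dorset and 1.97% for Han BB against Han ++. The median log2 fold change of the 21 genes was -0.06, 0.05 and -0.03 in the same order. In Han BB against Dorset the values ran from -2.46 (SE 1.23) for CYP1A1, an enzyme that hydroxylates estrogens, to 0.66 (SE 0.66) for STAR. In Han ++ against Dorset they ran from -0.93 (SE 0.49) for FDX1, the electron donor of CYP11A1, to 1.09 (SE 0.79) for HSD17B2, which inactivates estradiol. In Han BB against Han ++ they ran from -1.80 (SE 1.45) for SRD5A2, the other 5α-reductase, to 0.81 (SE 0.49) for FDX1. For CYP11A1 the 3 values were -0.29, -0.13 and -0.16, and for HSD3B1 they were -0.64, -0.85 and 0.21.

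Among 21 tested regulators of steroidogenic genes, 0 passed the adjusted threshold, and NR4A1 alone had an unadjusted p under 0.05. Among all tested rows 4.99% in Han BB against Dorset and 5.27% in Han ++ against Dorset had such a p, so 1 of 21 is near that share. NR4A1 encodes an orphan nuclear receptor that gonadotropins induce quickly in theca and granulosa cells. It was 92.9 CPM in D4, 125 CPM in D5 and 37.9 CPM in D6, against 9.21 CPM in W1, 11.1 CPM in W2 and 18.4 CPM in W4, and 6.58 CPM in W6, 11.2 CPM in W7 and 23.1 CPM in W8. All 6 Han ewes were lower than all 3 Dorset ewes. Of all tested rows, 8.79% had groups that did not overlap in Han BB against Dorset and 11.1% in Han ++ against Dorset. The log2 fold change of NR4A1 was -2.72 (SE 0.55) for Han BB and -2.65 (SE 0.55) for Han ++ against Dorset, with unadjusted p of 0.000442 and 0.000532 and adjusted p of 0.749 and 0.379 in edgeR, so neither was called. These 2 comparisons share the Dorset ewes. With W4 and D6 left out, the values were -3.44 and -3.03 with adjusted p of 0.153 and 0.0407, so the Han ++ against Dorset difference then passed the threshold. With single ewes left out, the log2 fold change stayed between -3.23 (without W8) and -2.27 (without D5) in both comparisons, with adjusted p of 0.166 or more. The receptors differed less: LHCGR had log2 fold changes of 0.31, -0.17 and 0.49 and FSHR of -0.47, 0.09 and -0.56 in Han BB against Dorset, Han ++ against Dorset and Han BB against Han ++. The medians of the regulators were -0.47, -0.07 and -0.13 in that order.

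The markers of the cell types that hold the members were read beside them. Of 16 tested theca markers, which include CYP17A1 and INSL3, 13 had a negative log2 fold change in Han BB against Dorset, 11 in Han ++ against Dorset and 13 in Han BB against Han ++, with medians of -0.61, -0.32 and -0.21. The medians over all tested rows were -0.01, -0.06 and 0.04. LHCGR, NR5A1 and TCF21 are also in the list of regulators, and the comparisons share ewes, so these sign counts are not separate results. None of the theca markers passed the adjusted threshold. GLI1, a target gene of hedgehog signalling, was 28.7 CPM in D5, 8.86 CPM in D4 and 4.52 CPM in D6. In Han BB it was 2.03 to 4.28 CPM and in Han ++ 3.01 to 7.28 CPM. Its log2 fold change was -2.02 (SE 0.65) in Han BB and -1.49 (SE 0.63) in Han ++ against Dorset, with adjusted p of 0.970 and 0.912 in edgeR, and without D5 it was -0.92 and -0.41. COLEC11 had -1.20 (SE 0.50) in Han BB against Dorset, with an adjusted p of 0.975 in edgeR. The summed theca markers came to 405 to 573 CPM in Han BB, 466 to 624 CPM in Han ++ and 520 to 669 CPM in Dorset. These sums include CYP17A1 itself and STAR, which luteal cells share and which ranged from 19.7 CPM in D5 to 213 CPM in W6. They are thus no separate measure of theca cells beside CYP17A1.

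Of 17 tested granulosa markers, which include CYP19 and HSD17B1, 15 had a negative log2 fold change in Han BB against Dorset, 9 in Han ++ against Dorset and 13 in Han BB against Han ++, with medians of -0.49, -0.02 and -0.45. The medians over all tested rows were -0.01, -0.06 and 0.04. FSHR, NR5A2 and ESR2 are also in the list of regulators, and the comparisons share ewes, so these sign counts are not separate results either. None of the granulosa markers passed the adjusted threshold. FST, the activin-binding protein follistatin, had -1.12 (SE 0.44) in Han BB against Dorset, and GJA1, the gap junction protein of granulosa cells, had -0.62 (SE 0.28) in Han ++ against Dorset, with adjusted p of 0.975 and 0.943 in edgeR. TNFAIP6, a matrix protein gene induced in the cumulus and granulosa cells at ovulation, had 3.01 (SE 1.32) in Han BB against Dorset, with an adjusted p of 0.975 in edgeR. It was 234 CPM in W4 and at most 35.3 CPM in the other 8 ewes. The summed granulosa markers came to 908 to 1391 CPM in Han BB, 950 to 1401 CPM in Han ++ and 1306 to 1433 CPM in Dorset. FOXL2, NR2F2 and DHH were not analysed here.

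**Figure D5:**
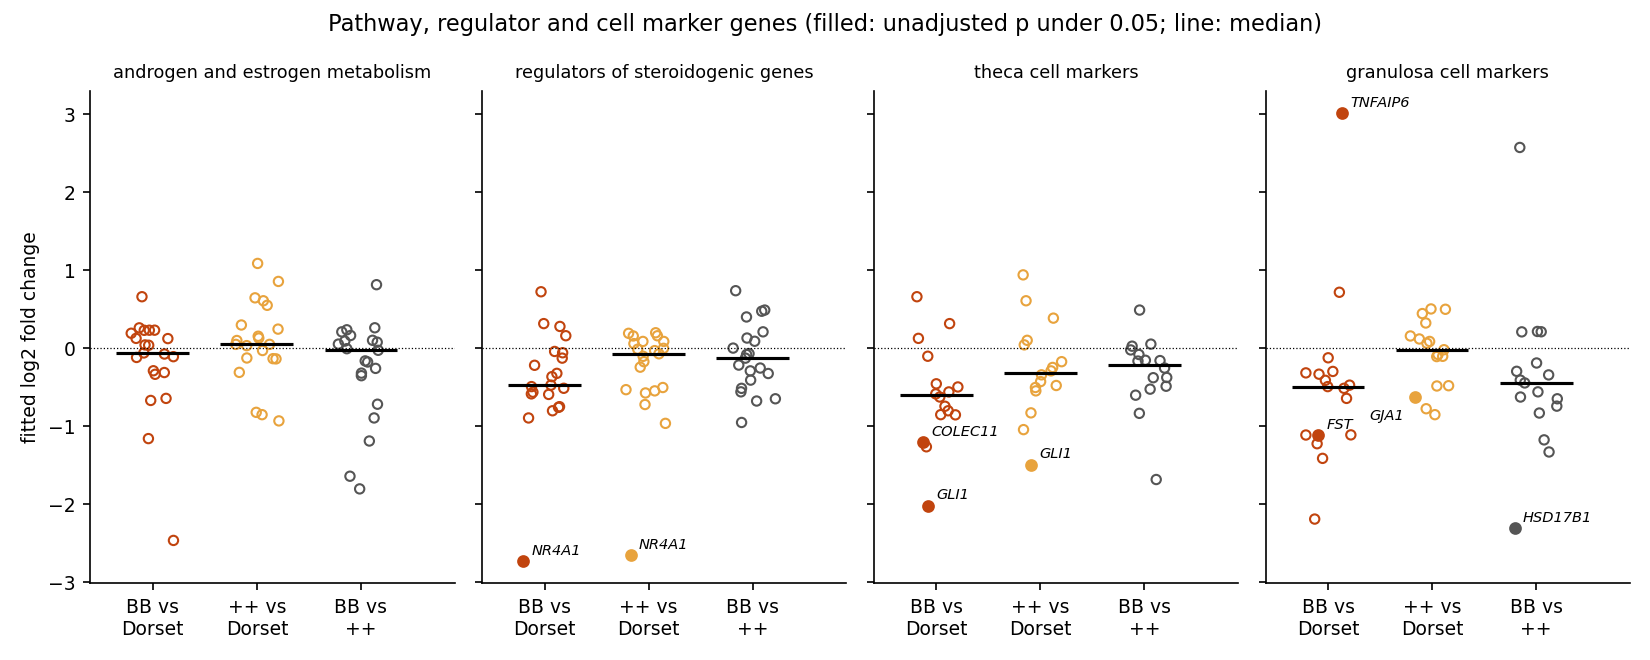
Fitted log2 fold change of each tested gene of 4 lists for the 3 comparisons, where filled points have an unadjusted p under 0.05 and the line is the median of the list. NR4A1 lies near -2.7 in both comparisons with Dorset, no gene of androgen and estrogen metabolism is filled, and HSD17B1 is the only member that is.

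Luteal cells arise from theca and granulosa cells after ovulation and share STAR, CYP11A1 and HSD3B1 with them. Of 11 tested luteal markers 0 had an unadjusted p under 0.05 in any comparison, with medians of 0.12 for Han BB against Dorset, -0.13 for Han ++ against Dorset and 0.15 for Han BB against Han ++. Their summed level was 1396 CPM in W4 and 5244 CPM in W2 of the Han BB group, 2264 to 3507 CPM in Han ++, and 904 CPM in D5 and 5862 CPM in D4 of the Dorset group, so it also ranged widely within groups. D4 and W2 were the highest 2 for this sum and for CYP17A1, but W7 was level with W2 in CYP17A1, at 69.3 CPM, with a luteal sum of 3311 CPM. In D4 STAR held 146 CPM, CYP11A1 493 CPM and HSD3B1 98.1 CPM, so most of its sum came from other genes of the list. CYP11B1, an enzyme of the adrenal cortex, was at 0 reads in all 9 libraries.

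Markers of cell types that do not make these steroids were read as well. ROPN1L, a ciliary protein gene, was the only gene called among the lists: it was 3.31 CPM in D4, 2.66 CPM in D5 and 4.08 CPM in D6, against 25.7 CPM in W6, 19.5 CPM in W7 and 20.7 CPM in W8, a log2 fold change of 2.71 (SE 0.31) with an adjusted p of 0.0446 in edgeR for Han ++ against Dorset. Its adjusted p was 0.0127 without W4, 0.0174 without both W4 and D6, and from 0.116 to 0.468 without any single one of the other ewes. All 13 ciliated epithelium markers had a positive log2 fold change in that comparison, with a median of 0.78, and 12 of 13 did in Han BB against Dorset, with a median of 0.80. FOXJ1, the ciliary regulator, had 1.70 (SE 0.38) in Han ++ against Dorset, with an adjusted p of 0.448 in edgeR. The summed level of 8 oviduct secretory markers was 1089 to 1496 CPM in Han BB, 1074 to 2159 CPM in Han ++ and 489 to 1038 CPM in Dorset. Of these, TFF3 had 3.85 (SE 0.64) and 2.66 (SE 0.62), WFDC2 had 3.21 (SE 0.58) and 2.29 (SE 0.57) and OVGP1 had 1.42 (SE 0.39) and 0.92 (SE 0.39) in Han ++ and Han BB against Dorset, none called. No oviduct marker was at 0 in all libraries. The part of these cells in the members' values was not tested.

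The 8 smooth muscle markers had medians of -0.49 in Han BB against Dorset, -0.43 in Han ++ against Dorset and -0.01 in Han BB against Han ++, with 6 of 8 and 7 of 8 negative in the comparisons with Dorset. Of these, LMOD1 had -1.48 (SE 0.38) in Han ++ against Dorset and -1.25 (SE 0.37) in Han BB against Dorset, CNN1 had -1.19 (SE 0.40) and DES had -1.23 (SE 0.51) in Han BB against Dorset, none called, and the sum of the list was 6385 CPM in D4 but 12513 CPM in D5 and 12339 CPM in D6. The 9 oocyte markers had medians of 0.05, -0.73 and 0.66 in the same order. Of these, KIT had 0.71 (SE 0.27) in Han ++ against Dorset and ZP2 had 0.92 (SE 0.38) in Han BB against Han ++, none called. The 5 endothelial markers had medians of 0.16, -0.01 and 0.14 and the 8 immune markers of 0.23, 0.10 and 0.15, in Han BB against Dorset, Han ++ against Dorset and Han BB against Han ++, with 0 of either list under an unadjusted p of 0.05.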

How the data were processed

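Whole-ovary RNA was measured in 9 ewes. The authors aligned reads with TopHat to the sheep genome Oar 3.1, and the deposited table holds raw counts of uniquely mapped reads per gene. The counting program and strand setting are not given in the sources at hand, and the methods and the labels name different library kits. edgeR 4.0.16 (R 4.3.3) was fitted to the counts of all 9 libraries by group, with TMM scaling, its own filter on low counts and Benjamini-Hochberg adjustment, and was tested on simulated data. CPM are counts scaled to the TMM-adjusted library size, and log2 CPM used a prior count of 2. Alternatives were DESeq2 1.42.0 and its size factors, limma 3.58.1 with quality weights, library totals, other filters, fits of 2 groups, each ewe left out, and W4 and D6 left out or given a term.

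The members, lists and tests were chosen with earlier results of these data known. Named were the 7 members, the 3 genes most like each, STAR, CYP11A1, HSD3B1, LHCGR and FSHR and, from each list, at most 3 genes with the smallest unadjusted p under 0.05. The ends of a list's range, rows with a suffix, and fits of NR4A1, ROPN1L and GLI1 without single ewes were added after values were seen. Of 6 correlations planned over 9 ewes, 4 were computed, within the 6 ewes with high CYP17A1, because the ewes were divided at the widest step of CYP17A1 and of CYP19. Gene neighbours come from RefSeq, where 6 of 7 members were matched. No sequence was matched to these genes. INSL3 and JAK3 reads, the CYB5A rows, CYP19 and HSD17B1, and the parts of summed lists were set side by side as a description. No test compared levels between genes.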

Additional observations from a re-analysis of the deposited data

How the results depend on the processing

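The count of called members was 0 in all 3 comparisons under every alternative run with the adjusted threshold, and 0 without each ewe in turn, while an unadjusted p under 0.05 gave 1 (HSD17B1, Han BB against Han ++). Over all genes DESeq2 called 29, 65 and 2 genes and limma 0, 0 and 2, where edgeR called 0, 1 and 0, for Han BB against Dorset, Han ++ against Dorset and Han BB against Han ++. No member's log2 fold change passed the threshold under 19 settings each for 21 results. Of these 399 values, 351 kept their sign and 48 did not. A total of 10 results never changed sign, among them HSD17B1 in both comparisons of Han BB. In Han BB against Han ++ its groups did not overlap, so leaving out an ewe could not turn the sign. The cause of the changes of sign was not tested. Without both W4 and D6, CYP19 turned to 2.07 and 1.81 (Han BB and Han ++ against Dorset) and 0.26 (Han BB against Han ++), INSL3 to -0.084 and HSD17B1 to -0.36 (Han ++ against Dorset) and CYB5A.1 to 0.096 (Han BB against Han ++). With a term for W4 and D6, these were 0.42 and 0.75 for CYP19 against Dorset, -0.29 for INSL3, -0.52 for HSD17B1 and 0.054 for CYB5A.1, and SRD5A1 was 0.028 (Han BB against Dorset). limma gave 0.31 for CYP19, -0.092 for INSL3 and -0.18 for HSD17B1 (Han ++ against Dorset) and 0.023 for CYB5A.1 (Han BB against Han ++). Library totals gave 0.050 for CYP19 and 0.039 for POR (Han ++ against Dorset) and 0.039 for SRD5A1 (Han BB against Dorset), where DESeq2 size factors gave 0.0071, DESeq2 0.0085 and no filter 0.028. With each ewe left out in turn, Han BB against Dorset ranged from -4.24 to 1.498 for CYP19, -0.84 to 0.56 for SRD5A1 and -0.088 to 0.39 for CYB5A.1. Han ++ against Dorset ranged from -0.86 to 0.45 for CYP17A1, -0.70 to 1.79 for CYP19, -0.17 to 0.21 for INSL3, -0.35 to 0.96 for HSD17B1, -0.17 to 0.063 for POR and -0.072 to 0.40 for CYB5A.1. Han BB against Han ++ ranged from -4.22 to 0.36 for CYP19 and -0.24 to 0.11 for CYB5A.1. The 4 correlations kept their sign under a prior count of 0.5, DESeq2 size factors, group centring and summed rows, while leaving out D4 and D5 turned 3 of the 4. As the only Han BB ewe of the 6, W2 was placed at its own group mean by the centring. Leaving out W4 and D6 left under 6 ewes. No paired analysis was possible because the labels give animal names and no shared replicate numbers. HSD17B1 rested on 1 read in W4 and 4 reads in W2, so its values there are imprecise.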
